A study of Homo sapiens with 6 samples.

Results

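The genes described here are 10 genes for glycoproteins of the colon and stomach lining: 4 of the carcinoembryonic antigen family (CEACAM1, CEACAM5, CEACAM6 and CEACAM7), 3 mucins (MUC1, MUC2 and MUC5AC) and the 3 trefoil factors (TFF1, TFF2 and TFF3). They were chosen by symbol, and each was measured by 1 probe set, so 10 of the 23752 named genes on the arrays are covered. The cells were SW480, a cell line established from a human colorectal cancer. In 1 group of 3 arrays they carried a pTarget plasmid that expresses TUSC3, and in the other 3 the same plasmid without an insert (empty vector, EV). The transfection was transient and used liposomes, the share of cells that took up plasmid is not stated in the labels, and each value averages all cells of a culture. Fewer cells using a gene and less RNA per cell therefore cannot be told apart. The labels speak of triplicates without saying that these were separate cultures, so the p-values cover only the spread among these 6 samples, possibly a technical one.

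CEACAM proteins are cell surface glycoproteins of the immunoglobulin superfamily, anchored in the membrane by a protein segment (CEACAM1) or by a lipid (CEACAM5, CEACAM6 and CEACAM7), and they carry many N-glycans. Mucins are long proteins densely covered with O-glycans, which either stay in the apical membrane (MUC1) or are secreted and form the mucus gel (MUC2 and MUC5AC). Trefoil factors are small disulfide-knotted peptides secreted together with mucins, TFF1 and TFF2 mainly in the stomach and TFF3 mainly by goblet cells of the gut. TUSC3 is a subunit of the oligosaccharyltransferase, which adds N-glycans to proteins as they enter the endoplasmic reticulum. The comparison asked whether transcripts differ between cells with added TUSC3 and cells with the empty vector.

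Levels are log2 values from RMA, a method that corrects background, gives all arrays the same distribution and combines the probes of a gene. The median of all probe sets was 5.50 on every array, and no detection call was used. The array floor was read from 354 olfactory receptor genes, which are hardly used outside the nose. Their median lay between 3.03 and 3.08 and their 95th percentile between 4.69 and 4.92 over the 6 arrays. A gene is called above the floor here where it exceeded that 95th percentile on all 6 arrays. Probe sets differ in the signal they give without target, so the floor is a range, a gene inside it is not shown to be silent, and a higher value of one gene than of another does not show more transcript. Where a list is described below, its highest values are given as array signals only. TUSC3 replicate 1 held 22765 distinct values, while the other 5 arrays had 9648 each, and the reason was not tested. The TUSC3 probe set read 13.11 ± 0.022 (SD, n = 3) with the plasmid and 4.51 ± 0.16 (SD, n = 3) without it, in the direction the labels give.

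Of the 10 genes, CEACAM1, MUC1, MUC5AC and TFF3 were above the floor, 4 of 10 against 54.6% of all named genes. TFF2 exceeded it on 3 of 6 arrays, and MUC2, TFF1, CEACAM5, CEACAM6 and CEACAM7 on none. None of the 10 differed between the TUSC3 and EV arrays past an adjusted p of 0.05 in limma, a linear model with variances moderated over all genes. CEACAM6 was the 1 gene of the 10 with an unadjusted p under 0.05. The stricter 99th percentile of the olfactory receptor genes left 2 genes above the floor, CEACAM1 and TFF3. With 86 keratin-associated protein genes of the hair shaft as the reference, CEACAM1 alone remained.

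**Figure D1:**
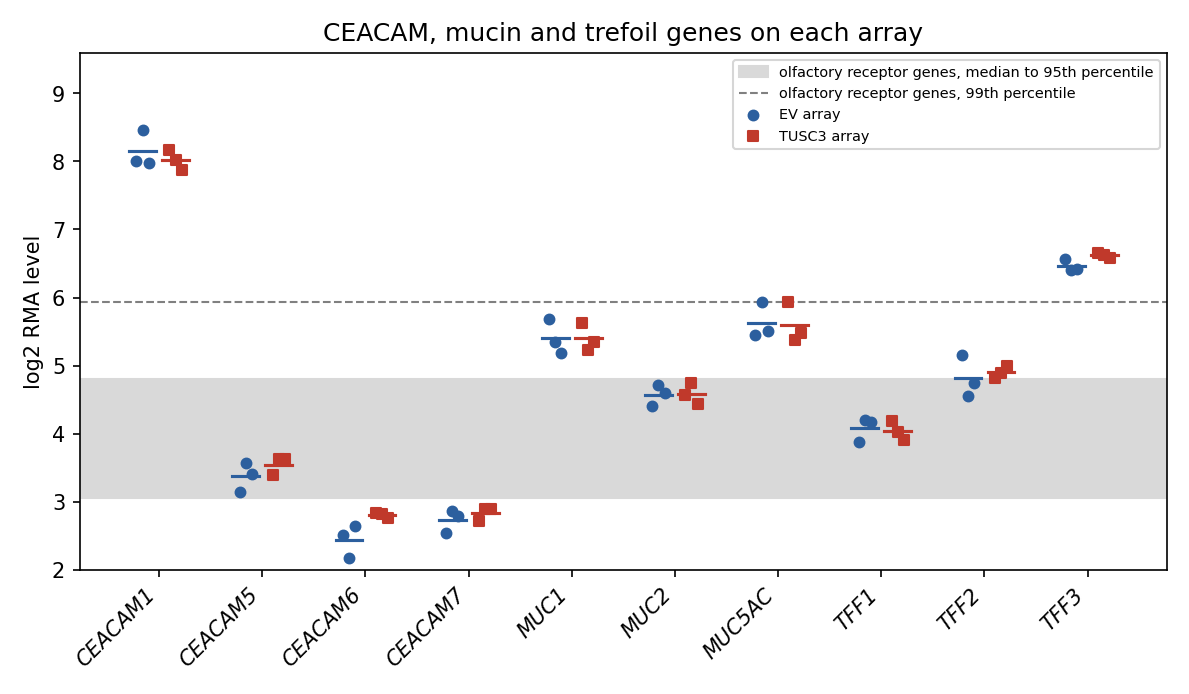
Log2 RMA level (vertical axis) of the 10 genes on each EV array (blue circles) and TUSC3 array (red squares), with group means as short bars. The grey band runs from the median to the 95th percentile of 354 olfactory receptor genes and the dashed line marks their 99th percentile, each averaged over 6 arrays. CEACAM1 and TFF3 lie above the dashed line, and CEACAM6 and CEACAM7 lie below the band.

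CEACAM1, an adhesion molecule and inhibitory receptor of epithelial and immune cells, read 8.00, 8.47 and 7.97 on EV replicates 1, 2 and 3 and 8.17, 8.03 and 7.88 on TUSC3 replicates 1, 2 and 3. All 6 values lay between the 73.3rd and the 79.5th percentile of the named genes, and 0 of the 354 olfactory receptor genes had a mean as high. EV replicate 2 was the highest array, and the groups overlapped. The difference, TUSC3 minus EV, was -0.12 with a 95% interval of -0.47 to 0.23 (limma, adjusted p = 0.901). Without EV replicate 2 it was 0.037.

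CEACAM5 encodes carcinoembryonic antigen, the serum marker used to follow colorectal cancer. It read 3.15, 3.58 and 3.41 on the EV arrays and 3.39, 3.63 and 3.62 on the TUSC3 arrays, in the order of the replicates. Of the olfactory receptor genes, 93 of 354 (26.3%) had a mean at least as high. EV replicate 1 was the lowest array and the groups overlapped, with a difference of 0.17 and an interval of -0.13 to 0.47 (limma, adjusted p = 0.843). Without EV replicate 1 the difference was 0.054.

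CEACAM6, which is raised in many carcinomas, read 2.52, 2.17 and 2.64 on the EV arrays and 2.83, 2.83 and 2.76 on the TUSC3 arrays. The 3 TUSC3 values lay above the 3 EV values, and EV replicate 2 stood lowest, at the 0.0632nd percentile of its array. The groups differed by 0.36 (SE 0.12), with an interval of 0.07 to 0.65 (limma, unadjusted p = 0.0210, adjusted p = 0.731). Without EV replicate 2 it was 0.23. All 6 values were nevertheless under the median of the olfactory receptor genes, of which 308 of 354 (87.0%) had a mean at least as high. The interval thus bounds a change in array signal near its lower end and not in transcript amount.

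CEACAM7, a gene of mature colon surface cells, read 2.54, 2.86 and 2.79 on the EV arrays and 2.71, 2.89 and 2.90 on the TUSC3 arrays. The groups overlapped and EV replicate 1 was lowest, as for CEACAM5. The difference was 0.10 with an interval of -0.15 to 0.35 (limma, adjusted p = 0.881), and without EV replicate 1 it was 0.0060. Of the olfactory receptor genes, 259 of 354 had a mean at least as high. The sequences of the array probes were not used here. CEACAM5, CEACAM6 and CEACAM7 are close paralogues, so how far each probe set reads the others was not tested.

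The 4 CEACAM genes lie on chromosome 19, with CEACAM7, CEACAM5 and CEACAM6 side by side and CEACAM1 at a distance. Their promoters are shown because the genes descend from a common ancestor while only CEACAM1 was above the floor. Promoter windows from RefSeq, build GRCh38.p14, run from 250 bases before to 50 bases from the annotated start, and 6 of the 10 genes matched (MUC1, MUC2 and the 4 CEACAM genes). MUC5AC, TFF1, TFF2 and TFF3 had none. The windows come from the reference genome and not from SW480. Capitals mark matches on either strand to a GC box (GGGCGG), an E-box (CACGTG), the CCAAT box, the TATA box (TATAAA) or the letters TTTATG, which CDX factors bind.

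CEACAM1 (chr19:42528432-42528731, minus strand): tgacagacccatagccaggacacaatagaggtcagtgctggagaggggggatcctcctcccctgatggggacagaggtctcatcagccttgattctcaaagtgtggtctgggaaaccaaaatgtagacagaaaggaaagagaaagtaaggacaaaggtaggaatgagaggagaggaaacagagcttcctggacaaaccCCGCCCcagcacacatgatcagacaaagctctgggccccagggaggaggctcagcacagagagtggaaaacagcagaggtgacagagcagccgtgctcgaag
CEACAM5 (chr19:41708376-41708675, plus strand): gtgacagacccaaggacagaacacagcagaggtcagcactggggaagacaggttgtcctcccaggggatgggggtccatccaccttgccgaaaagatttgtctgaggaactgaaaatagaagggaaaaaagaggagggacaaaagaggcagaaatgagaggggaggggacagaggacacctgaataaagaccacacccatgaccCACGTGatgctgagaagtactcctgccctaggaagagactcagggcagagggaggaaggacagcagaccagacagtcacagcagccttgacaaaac
CEACAM6 (chr19:41755280-41755579, plus strand): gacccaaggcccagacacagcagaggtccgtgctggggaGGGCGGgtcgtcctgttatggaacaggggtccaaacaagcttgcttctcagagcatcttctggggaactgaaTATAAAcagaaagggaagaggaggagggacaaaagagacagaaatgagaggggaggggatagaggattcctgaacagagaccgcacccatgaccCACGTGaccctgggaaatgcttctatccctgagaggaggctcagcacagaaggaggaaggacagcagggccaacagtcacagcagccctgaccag
CEACAM7 (chr19:41688221-41688520, minus strand): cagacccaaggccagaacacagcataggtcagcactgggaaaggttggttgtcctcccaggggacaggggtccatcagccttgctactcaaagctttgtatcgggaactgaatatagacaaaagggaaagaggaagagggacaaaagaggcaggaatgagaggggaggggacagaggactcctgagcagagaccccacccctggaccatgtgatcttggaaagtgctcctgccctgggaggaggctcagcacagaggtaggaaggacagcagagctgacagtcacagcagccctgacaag

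In a global alignment the CEACAM7 window was 81.4% identical to that of CEACAM5 and 80.5% to that of CEACAM6, and those of CEACAM5 and CEACAM6 were 74.7% identical. The CEACAM1 window was 65.6% identical to that of CEACAM5, 68.2% to CEACAM6 and 71.2% to CEACAM7. The E-box letters stood in the CEACAM5 and CEACAM6 windows, at positions -46 and -45 from the start, and in 7.43% of 27305 RefSeq promoters. GC box letters stood once in CEACAM1 and once in CEACAM6, against 44.6% of promoters with at least 1, and TATA box letters once in CEACAM6, against 11.95%. The CCAAT box (35.7% of promoters) and TTTATG (10.97%) had 0 matches in these 4 windows. CEACAM7 had none of the 5 motifs, and no matches overlapped in these 4 windows. The MUC2 window, not printed here, had 1 match each to TTTATG, the CCAAT box and the GC box. The MUC1 window, also not printed, had 4 GC box matches, some of them overlapping, and 1 TATA box match. A match describes letters and not a site in use.

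MUC1, the membrane mucin of most simple epithelia, read 5.69, 5.35 and 5.18 on the EV arrays and 5.63, 5.23 and 5.34 on the TUSC3 arrays. The groups overlapped throughout, with replicate 1 the highest in each. The difference was -0.01 with an interval of -0.37 to 0.36 (limma, adjusted p = 0.996). The MUC1 mean stood among the top olfactory receptor genes, of which 8 of 354 (2.26%) were as high.

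MUC2 is the main gel-forming mucin of the intestine and the product that defines goblet cells. It read 4.40, 4.72 and 4.59 on the EV arrays and 4.57, 4.74 and 4.44 on the TUSC3 arrays, all under the floor threshold of the same array. The groups covered nearly the same range, and the difference was 0.01 with an interval of -0.26 to 0.28 (limma, adjusted p = 0.991). At the looser 90th percentile of the olfactory receptor genes MUC2 and TFF2 also counted as above the floor.

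MUC5AC, the gel-forming mucin of the stomach surface and the airways, which also appears in some colorectal tumours, read 5.45, 5.93 and 5.51 on the EV arrays. On the TUSC3 arrays it read 5.93, 5.38 and 5.49. Each group held 1 high array, EV replicate 2 and TUSC3 replicate 1, and the groups overlapped. The difference was -0.03 with an interval of -0.46 to 0.39 (limma, adjusted p = 0.983). The residual SD of MUC5AC, 0.28, was larger than that of 93.1% of the named genes.

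TFF1, a peptide of stomach surface cells, read 3.88, 4.20 and 4.17 on the EV arrays and 4.18, 4.03 and 3.91 on the TUSC3 arrays. The groups overlapped, and 45 of 354 olfactory receptor genes (12.7%) had a mean as high. The difference was -0.05 with an interval of -0.32 to 0.22 (limma, adjusted p = 0.959).

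TFF2, a peptide of the mucous neck and gland cells of the stomach, read 5.16, 4.55 and 4.75 on the EV arrays and 4.82, 4.90 and 4.99 on the TUSC3 arrays. It was over the floor threshold on EV replicate 1 and on TUSC3 replicates 2 and 3, so which arrays passed did not follow the groups. The difference was 0.08 with an interval of -0.27 to 0.44 (limma, adjusted p = 0.943). Without EV replicate 2, the lowest array, it was -0.05.

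TFF3, the trefoil factor that goblet cells secrete with MUC2, read 6.56, 6.40 and 6.42 on the EV arrays and 6.66, 6.62 and 6.58 on the TUSC3 arrays. Every TUSC3 array read higher than every EV array, although the gap between the nearest arrays was smaller than the spread within the EV group. The groups differed by 0.16 (SE 0.072), with an interval of -0.01 to 0.33 (limma, unadjusted p = 0.0671, adjusted p = 0.756). TFF3 varied little, with a residual SD of 0.068 against a median of 0.12 over the named genes. Its mean level of 6.54 was just above the highest mean of an olfactory receptor gene, 6.53.

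Counted together, 0 of the 10 genes passed the adjusted threshold, against 0.00421% of all named genes, which is TUSC3 alone. At an unadjusted p under 0.05 there was 1 of 10, CEACAM6, against 6.71% of all genes. The TUSC3 arrays lay wholly above the EV arrays for CEACAM6 and TFF3, 2 of 10 against 6.17%, and wholly below them for 0 of 10 against 6.08%. The exact permutation p was 0.1 for CEACAM6 and for TFF3, the smallest value that 3 against 3 arrays can give. The median difference of the 10 genes was 0.048, with 6 higher and 4 lower, beside 0.0013 over all genes. A change of array signal of 1.5-fold or more lay outside the 95% interval for 9 of 10 genes, against 91.1% of all genes, and CEACAM6 was the exception. Of these 9, the 4 above the floor were CEACAM1, MUC1, MUC5AC and TFF3. For the other 5, as for CEACAM6, the interval does not bound a change in transcript amount. MUC1 and MUC5AC were not above the stricter 99th percentile of the olfactory receptor genes, so for them too such a bound is uncertain.

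**Figure D2:**
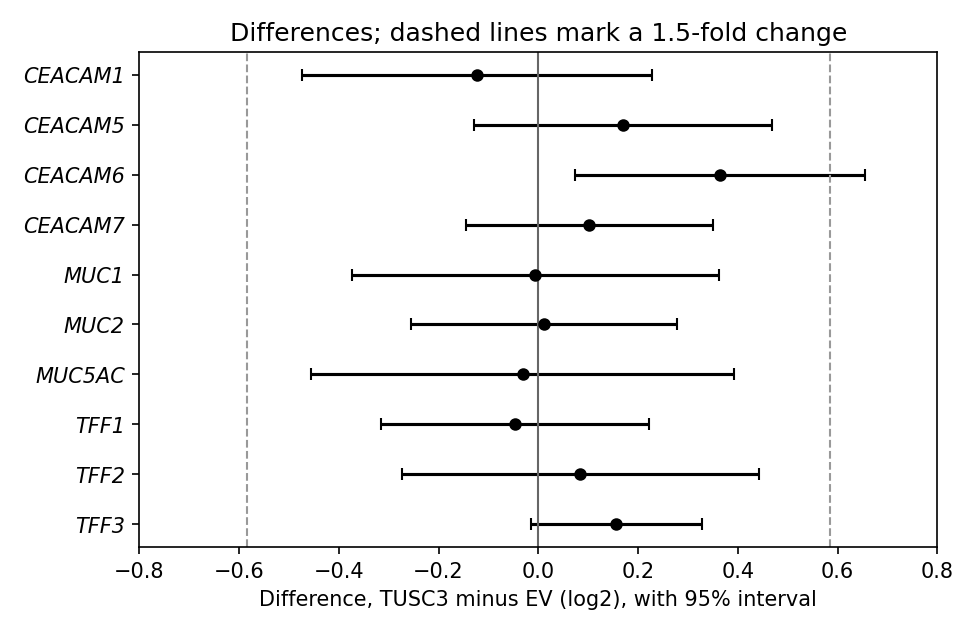
Difference between groups (TUSC3 minus EV, log2, horizontal axis) for each gene, as the point, with its 95% interval from limma as the bar. The dashed lines mark a 1.5-fold change either way. The intervals of 9 genes cover 0, that of CEACAM6 runs from 0.07 to 0.65, and none of the 10 genes passed the adjusted threshold.

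The arrays at the ends differed from gene to gene. EV replicate 1 was the lowest array for 4 of the 10 genes (CEACAM5, CEACAM7, MUC2 and TFF1) and the highest for MUC1 and TFF2. EV replicate 2 was the lowest for 3 genes (CEACAM6, TFF2 and TFF3) and the highest for CEACAM1 and TFF1. TUSC3 replicate 1, the array with more distinct values, was the highest for 3 genes (CEACAM6, MUC5AC and TFF3) and the lowest for 0. Likeness between genes was measured as the root mean square distance over the 6 arrays after subtracting each gene's own mean. Among the 45 pairs of the 10 genes it ranged from 0.052 to 0.39 log2 units with a median of 0.25, and the nearest pair was CEACAM5 and CEACAM7. These 2 are paralogues and were under the floor threshold on every array. Whether either bears on their likeness was not tested.

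**Figure D3:**
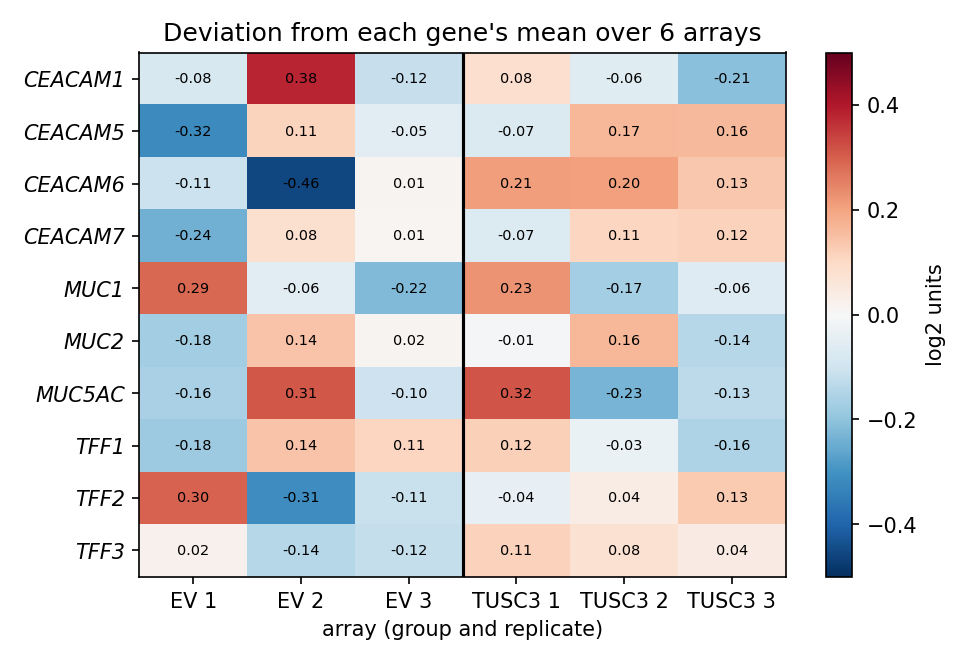
Deviation of each gene (rows) on each array (columns) from the gene's own mean over 6 arrays, in log2 units, printed in each cell and coloured from blue (lower) to red (higher). The black line separates EV from TUSC3 arrays. CEACAM6 and TFF3 are positive on all TUSC3 arrays, and CEACAM5 and CEACAM7 share a low EV replicate 1.

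Over all named genes, the nearest to CEACAM6, which had the widest range of the 10 (0.66), were LINC01563, MAGEB17 and LCE5A, at distances of 0.053 to 0.064. The nearest to TFF2, with a range of 0.61, were ANKRD33, UNC5D and SUGT1P1, at distances of 0.041 to 0.042. None of these 6 genes exceeded the floor on any array. With 6 arrays and 23752 genes to choose from, close matches are a description only.

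In the lists around the 10 genes, 0 of 161 genes passed the adjusted threshold in limma, and 11 (6.83%) had an unadjusted p under 0.05, near the 6.71% of all genes. Each count of list genes above the floor is to be read against the share of 54.6% over all named genes. Of 15 measured genes among the other CEACAM genes and the pregnancy-specific glycoproteins next to them on chromosome 19, 3 were above the floor, PSG11 at 8.01, PSG1 at 6.84 and PSG9 at 5.22. These are near-identical copies of one another, so which of them is read is uncertain. The smallest p belonged to CEACAM19, with a difference of -0.48 and an interval of -0.83 to -0.14, and to CEACAM4, with 0.39 and an interval of 0.06 to 0.72 (limma, adjusted p = 0.731 and 0.740). CEACAM8, a granulocyte gene, differed by 0.22 (limma, adjusted p = 0.760).

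A list of 18 other mucin genes also holds some genes that are not typical mucins, such as MCAM. In it 5 of 18 were above the floor on all arrays, against 54.6% of all named genes. They were the sialomucin of endosomes CD164 at 11.55, the adhesion molecule MCAM at 8.21, the intestinal membrane mucin MUC13 at 7.00, the ovarian cancer antigen MUC16 at 6.12 and the stomach gland mucin MUC6 at 5.51. MUC16 read 6.31, 6.26 and 6.31 on the EV arrays and 5.87, 5.99 and 5.99 on the TUSC3 arrays, without overlap. Its difference was -0.35 with an interval of -0.51 to -0.18, the smallest p in this list (limma, unadjusted p = 0.00144, adjusted p = 0.731). MUC17, which exceeded the floor on 0 arrays, differed by 0.39 and MUC6 by -0.26. In this list 8 genes were higher and 10 lower with a median of -0.033.

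Genes of differentiated gut cells were mostly not above the floor, which 54.6% of all named genes exceeded on all 6 arrays. Of 19 goblet cell genes, 4 were above it: KLK1, a kallikrein, at 7.21, REP15, a RAB15 effector, at 7.03, the goblet cell transcription factor SPDEF at 5.60 and ERN2, a stress sensor of mucous cells. ATOH1, the factor that commits gut cells to the secretory lineage, exceeded the floor on 5 of 6 arrays. Of 20 absorptive colonocyte genes, 5 were above it, among them TSPAN1 at 9.21, the sulphate transporter SLC26A2 at 8.05 and the microvillus protein VIL1 at 6.96. Of 12 stomach genes, 4 were, with the protease genes CAPN8 at 6.30 and CTSE at 6.25 and the water channel AQP5 at 5.82.

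None of these genes passed the adjusted threshold between groups. The smallest p were those of TPSG1 (0.22), BEST2 (-0.33) and SYTL2 (-0.33) among goblet genes, and of TSPAN1 (-0.24), PHGR1 (-0.40) and GPA33 (-0.25) among absorptive genes. For the stomach list they were those of GKN1 (0.15), PSCA (-0.10) and SOX2 (0.14). The lists had median differences of -0.023, -0.062 and -0.0031, in that order. Of the genes just named, BEST2, SYTL2, PHGR1, GKN1 and SOX2 exceeded the floor on 0 arrays, and TPSG1 on 5 of 6. The mean level of the absorptive list ran from 4.5691 to 4.6682 on the EV arrays and from 4.5375 to 4.5636 on the TUSC3 arrays, narrowly without overlap. Of its 20 genes, 15 were not above the floor on all arrays, so this mean includes much signal within the floor range. For the goblet and stomach lists, and for every other list, the ranges of the groups overlapped. These list means were not tested.

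The enzymes that build the O-glycans of mucins were above the floor in 18 of 26 genes (69.2%), against 54.6% of all named genes. GALNT6, which attaches the first sugar, stood at 9.73, C1GALT1, which extends it to the core 1 structure, at 9.56, and GALNT2 at 8.84. The smallest p were those of GCNT1, a core 2 branching enzyme, at -0.25 with an interval of -0.43 to -0.07, GALNT12 at -0.19 and GALNT5 at 0.29 (limma, adjusted p = 0.731, 0.760 and 0.779). GALNT5 exceeded the floor on 1 of 6 arrays, and GCNT1 and GALNT12 on all 6. In the list 10 genes were higher and 16 lower, with a median of -0.025.

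Intestinal transcription factors were above the floor in 10 of 14 measured genes (71.4%), against 54.6% of all named genes. SOX9 stood at 11.31, KLF5 at 10.80 and HES1 at 9.27. CDX2, a master factor of intestinal identity, stood at 7.99 and differed by 0.13 with an interval of -0.08 to 0.34 (limma, adjusted p = 0.828). KLF4, a factor of goblet cell maturation in mice, differed by 0.28, FOXA3 by -0.26 and FOXA1 by -0.29 (limma, adjusted p = 0.741, 0.751 and 0.825). FOXA1 exceeded the floor on 2 of 6 arrays, and KLF4 and FOXA3 on all 6.

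The epithelial label was met, with 11 of 12 simple epithelium markers above the floor, KRT19 at 12.54, EPCAM at 12.42 and CLDN4 at 11.11, and CDH17, the intestinal cadherin, not. Of these markers ESRP1 differed by -0.18, CLDN7 by -0.19 and VIL1 by -0.17 (limma, adjusted p = 0.741, 0.752 and 0.756). Above the floor were also 3 of 12 leukocyte markers (LYZ at 7.14, CD68 at 6.53 and CSF1R at 5.50), 3 of 10 fibroblast markers (ACTA2 at 6.93, COL1A1 at 6.47 and THY1 at 5.84) and 2 of 8 endothelial markers (CLDN5 at 5.25 and VWF at 5.05). The other 9 leukocyte, 7 fibroblast and 6 endothelial markers were not above it. Of these, PTPRC of leukocytes, DCN of fibroblasts and CDH5 of endothelium, given as examples, exceeded it on 0 arrays. Some of the others exceeded it on part of the arrays. Of all named genes, 54.6% exceeded it on all 6. The mean level of the leukocyte list ran from 4.25 to 4.34 on the EV arrays and from 4.28 to 4.41 on the TUSC3 arrays. For the fibroblast list it ran from 4.42 to 4.53 and from 4.36 to 4.45, and for the endothelial list from 3.88 to 4.10 and from 3.98 to 4.04. The ranges of the 2 groups overlapped in each of these 3 lists, and 0 of their genes passed the adjusted threshold. The smallest p were those of CD3D (0.20), LYZ (-0.20) and NKG7 (-0.16) among leukocyte markers. Among fibroblast markers they were those of THY1 (-0.33), PDGFRB (-0.18) and ACTA2 (0.10), and among endothelial markers those of KDR (-0.24), VWF (0.17) and CDH5 (0.13). THY1 had an interval of -0.62 to -0.04 with the TUSC3 arrays wholly below the EV arrays (limma, unadjusted p = 0.0322, adjusted p = 0.741). For CD3D the TUSC3 arrays lay wholly above the EV arrays (limma, adjusted p = 0.760), but CD3D exceeded the floor on 0 arrays. Over all named genes, 6.17% lay wholly higher on the TUSC3 arrays and 6.08% wholly lower. PDGFRB and KDR also exceeded the floor on 0 arrays, and NKG7 on 3 of 6.

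**Figure D4:**
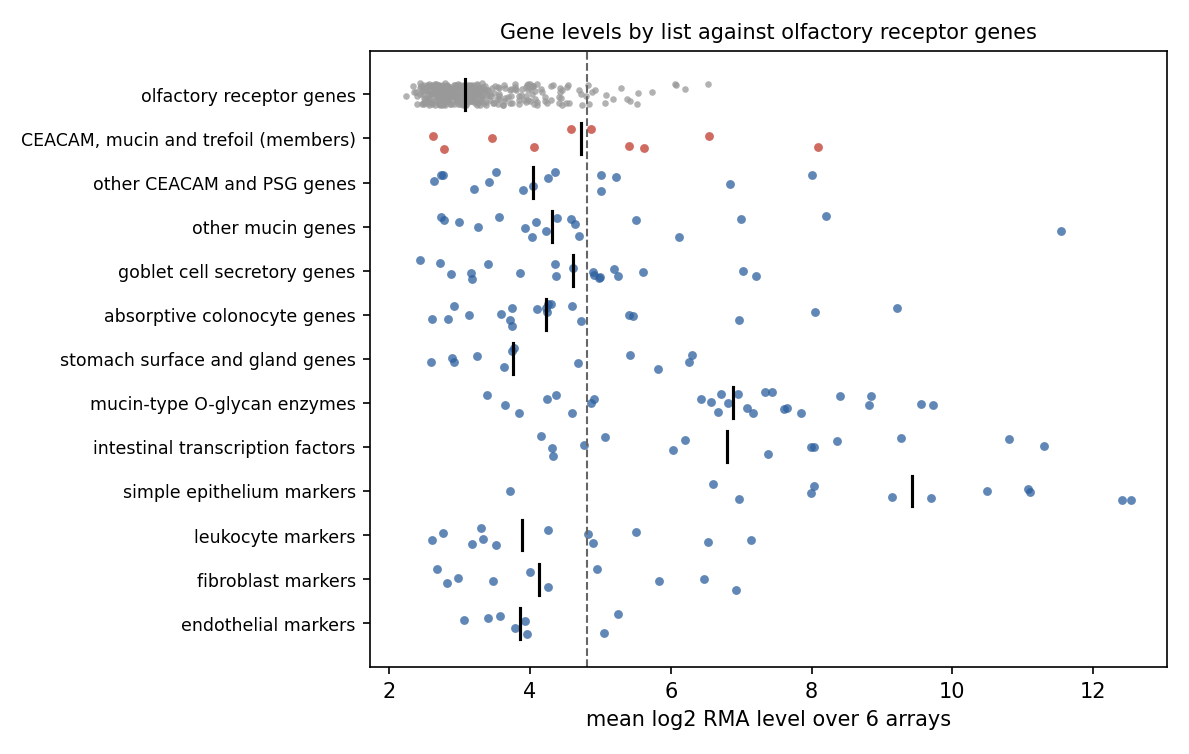
Mean log2 RMA level over 6 arrays (horizontal axis) of each gene of each list, with the list's median as a black bar, the 10 genes in red and the olfactory receptor genes in grey. The dashed line is the 95th percentile of the olfactory receptor genes averaged over 6 arrays. Simple epithelium markers, intestinal transcription factors and O-glycan enzymes lie mostly right of the line, and goblet, absorptive and stomach genes mostly left of it.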

How the data were processed

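Per the labels' protocols, total RNA was turned into biotin-labelled cRNA for Affymetrix arrays, 3 per group. Per the submitters' processing notes the authors used RMA, and the deposited values are log2 levels of 25088 probe sets. Neither the RMA version nor the array model is given in the sources used here. The platform annotation named 23752 probe sets with 1 gene each, and 1336 are unnamed here. RMA equalises the arrays, so a shift of most genes in 1 direction cannot be seen, and precision is limited by having 6 arrays.

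limma 3.58.1 (R 4.3.3) fitted TUSC3 minus EV with lmFit and eBayes, two-sided, over all named genes, with Benjamini-Hochberg adjustment over all of them and a threshold of 0.05. No filter or further normalization was applied. The procedure was tested on simulated data. The samples were grouped by their titles. Replicates with the same number in the labels did not deviate together (correlations -0.014, 0.043 and -0.011), so the numbers were not taken to pair the samples. Gene positions and promoters came from RefSeq GRCh38.p14.

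The 10 genes and the lists were chosen with earlier results of these data known. In each list the 3 genes with the highest mean and the 3 with the smallest p were named, and SPDEF, ATOH1, CDX2 and EPCAM always. HNF4A was also to be named always, but it is not among the measured list genes. ERN2 and the markers CDH17, PTPRC and DCN were named outside that rule, after their values were seen.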

Additional observations from a re-analysis of the deposited data

How the results depend on the processing

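The differences of the 10 genes were recomputed after a further quantile normalization, with array medians made equal, after dropping the 30% of probe sets with the lowest means (among them CEACAM5, CEACAM6 and CEACAM7), with a trended and robust variance prior, with array weights, with the replicate block, over all probe sets, and without each array in turn. Of 127 recomputed values, 0 passed the threshold. The lowest adjusted p was 0.544, of CEACAM6 with the trended and robust prior (range 0.544 to 0.854). With the replicate block CEACAM6 kept its difference of 0.36 (adjusted p = 0.779), and no call changed.

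The sign changed in 12 values, all without 1 array. Over these leave-outs the difference ran from -0.212 to 0.0367 for CEACAM1, -0.120 to 0.136 for MUC1, -0.0739 to 0.0853 for MUC2, -0.197 to 0.116 for MUC5AC, -0.149 to 0.0192 for TFF1 and -0.0500 to 0.253 for TFF2. It stayed above 0 for CEACAM5 (0.054 to 0.269), CEACAM6 (0.227 to 0.462), CEACAM7 (0.0060 to 0.167) and TFF3 (0.125 to 0.207), with the lowest values of CEACAM5 and CEACAM7 without EV replicate 1. The count of genes whose interval excluded a 1.5-fold change ran from 7 to 10 over the leave-outs. The count above the floor was 4, and it was 1 with keratin-associated protein genes as reference, 2 at the 99th percentile, 6 at the 90th and 5 by the mean over arrays. The TUSC3 difference stayed between 8.51 and 8.66.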
